A study of Mus musculus with 8 samples.

Results

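Voltage-gated calcium channel subunits were examined in single neurons of the mouse stellate ganglia. The genes are Cacna1a, Cacna1b, Cacna1c, Cacna1d, Cacna2d1, Cacna2d2, Cacnb3, Cacnb4 and Cacng2, and they were picked by name as 9 of the 19224 gene columns of the neuron table, with earlier results of these data known. The mice were C57BL6/J, 8 to 10 weeks old and of 1 condition. All had received a GFP virus in the heart and a tdTomato virus in the front paws, so no treatment is compared. The comparisons are between the 8 neuronal subtypes that the authors named, which by their names are 5 noradrenergic (NA1a, NA1b, NA1c, NA2 and NA3), 2 cholinergic (Ach1 and Ach2) and 1 glutamatergic (Glut). The protocol describes 16 left and right ganglia combined in 1 digestion, which are more than 1 mouse provides, while the labels name each library as a mouse. Whether a library holds the cells of 1 animal is therefore uncertain, "mouse" below means a library so named, and p-values measure the spread between these libraries.

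High voltage-activated calcium channels are built around a pore-forming alpha1 subunit, which sets the kind of current. Auxiliary beta subunits inside the cell and alpha2delta subunits outside it carry the channel to the membrane and adjust its gating. In sympathetic neurons, calcium entry through these channels starts transmitter release, and N-type channels are known as the main source of calcium current at the cell body and terminal.

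Values are UMIs (unique molecular identifiers, 1 per captured transcript) per 10000 UMIs of a neuron, averaged over the neurons of a mouse. Of the 8 mouse names, 5 were matched to a sample, all of batch 2, and these are replicates 1 to 5 with 1002 of the 1303 neurons. A mean over mice used mice with at least 10 neurons of a subtype, which were 5 mice for NA1a, NA1b, NA1c and NA2, and replicates 2, 4 and 5 for NA3. Ach2 had 2 such mice, Ach1 had 1 and Glut had none. Total UMIs were 916296 to 1196621 per mouse, and the median UMIs per neuron ran from 2162 in Ach1 to 8181.5 in NA1a. The subtypes had been clustered on these same neurons, and the tests below therefore tell only whether a difference recurred from mouse to mouse.

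Some properties of the libraries touch the results. A cell barcode found in more than 1 library was carried by 73 neurons, and 55 of these were among the 150 NA2 neurons, 15 among the 46 Ach2 neurons and 3 among the 17 Glut neurons. There were 21 such barcodes, each in 2 to 5 libraries, and 20 of them stood in 1 subtype only. Mean levels and differences of NA2 without these neurons, over 4 mice, are given beside those with them, while the levels by mouse include them. The 10 satellite glia markers summed to 316 UMIs per 10000 in NA3, from 221 to 443 over 3 mice, and all 10 were detected there. Their sum was 9.92 in NA1a, from 8.84 to 11.7 over 5 mice. The 7 neuron markers, Snap25, Syt1, Pcsk1n, Prph, Dbh, Th and Slc18a2, summed to 54.5 in NA3 and to 115 in NA1a, and to 122 in NA2 and 111 in NA1c. The label of NA3 as a neuronal subtype thus stands beside high levels of glial genes, led by Apoe at 159 ± 47.8 (SD, n = 3). Fabp7, 1 of the 10, is also a marker that the authors used for NA3. Markers of the cholinergic name of Ach1 were mixed. Chat, which makes acetylcholine, had no UMI in the 62 neurons of Ach1, of which 55 were of replicate 4. With neurons counted as independent, this allows a share of neurons with a UMI of up to 4.84% (95% limit). That limit does not cover the spread between mice. Slc18a3, the vesicular acetylcholine transporter, was at 0.328 in the 1 mouse of Ach1, and Chat and Slc18a3 were at 1.10 and 1.54 in Ach2. The mean of Slc18a3 was at most 0.0599 in the noradrenergic subtypes. Vip, also a marker of Ach2, was 5.07 in Ach1, 45.7 in Ach2 and at most 0.776 in the noradrenergic subtypes. Dbh and Th, of noradrenaline synthesis, were at 16.4 and 7.19 in Ach1. Satellite glia markers summed to 132 there and the 5 fibroblast markers to 37.4, so its values below stand for the cluster of that name.

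**Figure D1:**
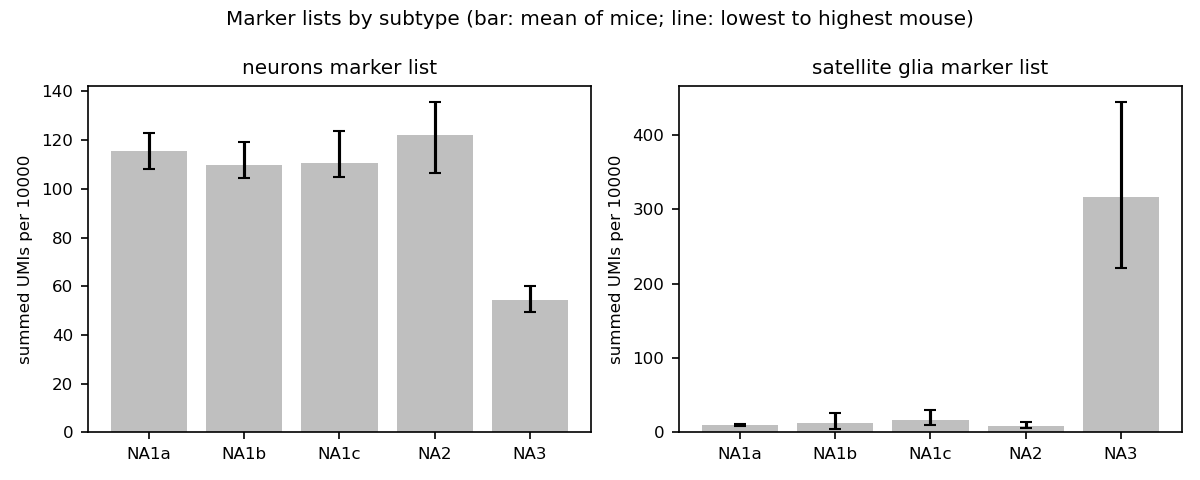
Summed level of the neuron marker list (left) and the satellite glia marker list (right) in UMIs per 10000 for each noradrenergic subtype. Bars are means over mice and lines run from the lowest to the highest mouse. NA3 has 316 UMIs per 10000 of glial markers and 54.5 of neuron markers.

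The pore-forming subunits with the most UMIs were Cacna1a and Cacna1b. Cacna1a, the P/Q-type alpha1 subunit, lies at chr8:84388440-84640246 on the plus strand (GRCm38, GENCODE gene span), and Cacna1b, the N-type alpha1 subunit, at chr2:24603887-24763152 on the minus strand. Over the 1002 neurons there were 1593 UMIs of Cacna1a and 1410 of Cacna1b. Cacna1d, an L-type alpha1 subunit at chr14:30039939-30491455 on the minus strand, had 268. Cacna1c, the other L-type alpha1 subunit among the 9 genes, at chr6:118587240-119196418 on the minus strand, had 59. Cacna1e, an alpha1 gene outside the 9, had 112 and is not part of the shares below.

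Cacna1a was high in the NA1 subtypes and low in NA2. In NA1c it was 5.10, 6.04, 3.79, 5.87 and 3.82 UMIs per 10000 in replicates 1 to 5, with a mean of 4.92 ± 1.08 (SD, n = 5). In NA2 the same mice had 0.289, 0.370, 0.561, 0.502 and 0.394, with a mean of 0.423 ± 0.108 (SD, n = 5), or 0.548 ± 0.194 (n = 4) without shared barcodes. Every NA2 value lay below every NA1c value. In NA1b the level was 3.82, 7.06, 3.81, 4.52 and 3.51, and in NA1a it was 2.67, 2.00, 3.61, 3.09 and 2.22. NA1a was below NA1b in each of the 5 mice. NA3 held 0.623, 2.14 and 1.53 in replicates 2, 4 and 5. Ach2 held 3.26 and 4.30 in its 2 mice, and Ach1 held 0.303 in replicate 4, its only mouse. The Ach2 mean was 3.78 ± 0.736, or 4.77 ± 0.757 without shared barcodes (SD, n = 2 each).

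Cacna1b followed the same order. It was 5.19, 4.17, 3.58, 4.07 and 3.51 UMIs per 10000 in NA1c, and 3.68, 4.52, 2.74, 2.97 and 2.92 in NA1b. In NA1a it was 2.43, 3.30, 2.93, 2.79 and 1.71. NA1a was below NA1c in all 5 mice, but the neighbouring means of NA1c, NA1b and NA1a differed by less than the larger of the 2 SDs (0.736 and 0.733 against 0.737). In NA2 it was 1.09, 0.474, 0.612, 0.640 and 0.688, below each NA1 value, with a mean of 0.701 ± 0.231 (n = 5), or 0.666 ± 0.282 (n = 4) without shared barcodes. NA3 had 0.702, 1.31 and 1.76, and Ach2 had 2.93 and 2.57. The Ach2 mean was 2.75 ± 0.256, or 3.43 ± 0.543 without shared barcodes (SD, n = 2 each).

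Cacna1d had a mean of 0.788 ± 0.216 in NA1a, 0.503 ± 0.275 in NA1b and 0.670 ± 0.350 in NA1c (SD, n = 5 each). It fell to 0.0928 ± 0.0758 in NA2 (n = 5), or 0.135 ± 0.10 (n = 4) without shared barcodes, and replicate 1 had no UMI there. In NA3 it was 0.227, 0.251 and 0.233. Cacna1c was at most 0.128 in every mouse of the noradrenergic subtypes and was 0.406 and 0.784 in the 2 Ach2 mice, 0.595 on average. Without the shared barcodes its Ach2 mean was 0.777. In Ach1 it had 0 UMIs in 62 neurons, of which 55 were of replicate 4. With neurons counted as independent, this allows a share of neurons with a UMI of up to 4.84% (95% limit). The mean of Cacna1c was below the limit of 0.2 UMIs per 10000 set for testing.

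Among the UMIs of the 4 alpha1 genes, Cacna1b took 41.9% ± 2.00 in NA1a and 41.8% ± 3.26 in NA1b (SD, n = 5 each). The difference was 0.0864 percentage points ± 4.53 (SD over mice), NA1a was higher in 2 of 5, and the exact two-sided sign-flip test over 5 mice gave p = 1. With each neuron thinned to 2000 UMIs the difference was -8.27 points (exact p = 0.312), and it was also negative without replicate 2 (-1.66) or replicate 5 (-0.407), so its direction is not settled. Cacna1a took 44.2% ± 4.51 in NA1a and 51.2% ± 2.33 in NA1b, and Cacna1d took 12.9% ± 3.40 and 5.73% ± 1.65. These are shares of UMIs and not of channels. In Ach2, Cacna1c took 9.03% ± 0.544 of the alpha1 UMIs (SD, n = 2, 166 UMIs), against 1.23% ± 0.429 in NA1b (n = 5, 1017 UMIs). With each neuron thinned to 2000 UMIs, Cacna1c was detected in 3.13% ± 4.42 of Ach2 neurons (SD, n = 2). It was then detected in 3.64% ± 2.79 of NA1a and 0.274% ± 0.613 of NA1b neurons (n = 5 each), so the height in Ach2 is not settled at equal depth. In NA2 the shares rested on 79 UMIs, with as few as 5 in a mouse.

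The auxiliary subunits were less alike. Cacna2d1, which codes for the alpha2delta-1 protein that binds gabapentin, lies at chr5:15934691-16374511 on the plus strand. Cacna2d2, the alpha2delta-2 gene, lies at chr9:107399612-107529343 on the plus strand. Cacnb3, a beta subunit gene at chr15:98630840-98644529 on the plus strand, spans 13.7 kb, the shortest of the 9. Cacnb4, the beta4 gene, lies at chr2:52428320-52676831 on the minus strand. Cacng2, at chr15:77991748-78120028 on the minus strand, codes for stargazin, which is best known as a partner of AMPA-type glutamate receptors.

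Cacna2d1 was 2.02, 1.87, 2.01, 3.02 and 4.03 UMIs per 10000 in NA1b and 1.52, 1.26, 1.80, 1.84 and 2.45 in NA1c, with NA1b the higher in all 5 mice. NA1a held 1.99 ± 0.226 (SD, n = 5), NA2 1.30 ± 0.437 (n = 5), or 1.90 ± 0.980 (n = 4) without shared barcodes, and NA3 0.930 ± 0.486 (n = 3). The Glut neurons, pooled because no mouse had 10 of them, had 5.20 from 43 UMIs in 17 neurons. Cacna2d2 ran from 0.203 ± 0.109 in NA2, or 0.239 ± 0.186 without shared barcodes, to 0.826 ± 0.337 in NA1b.

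Cacnb3 did not follow the pattern of the pore subunits. In NA2 it was 1.69, 0.917, 2.58, 2.62 and 1.98, and in NA1c it was 2.15, 2.18, 1.90, 1.58 and 1.82, so the 2 groups overlapped. The means of NA1a, NA1b, NA1c and NA2 lay between 1.74 and 1.96, and that of NA2 was 2.23 ± 0.976 (n = 4) without shared barcodes. NA3 alone was lower among the noradrenergic subtypes, at 0.836, 0.433 and 0.731, below each value of NA1a, NA1b, NA1c and NA2. Ach2 held 0.584 and 0.866, with a mean of 0.725, or 0.745 without shared barcodes (n = 2 each). Cacnb4 was 0.453 ± 0.12 in NA1a, 0.440 ± 0.268 in NA1c and 0.0909 ± 0.108 in NA2 (SD, n = 5 each). Without shared barcodes it was 0.119 ± 0.106 in NA2 (n = 4).

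Cacng2 was highest in NA1b among the noradrenergic subtypes, with 0.472, 0.953, 0.735, 0.337 and 0.906. NA1a had 0.0976, 0.121, 0.173, 0.201 and 0.350, below NA1b in each of the 5 mice. NA1c had 0.154, 0.538, 0.191, 0.0894 and 0.146, also below NA1b in every mouse. The mean levels of NA3, NA2, NA1c and NA1a, from 0.293 down to 0.189, differed between neighbours by less than the larger SD, and NA2 was at 0.337 ± 0.236 (n = 4) without shared barcodes. Only 22 UMIs of Cacng2 were found in NA1a and 82 in NA1b.

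**Figure D2:**
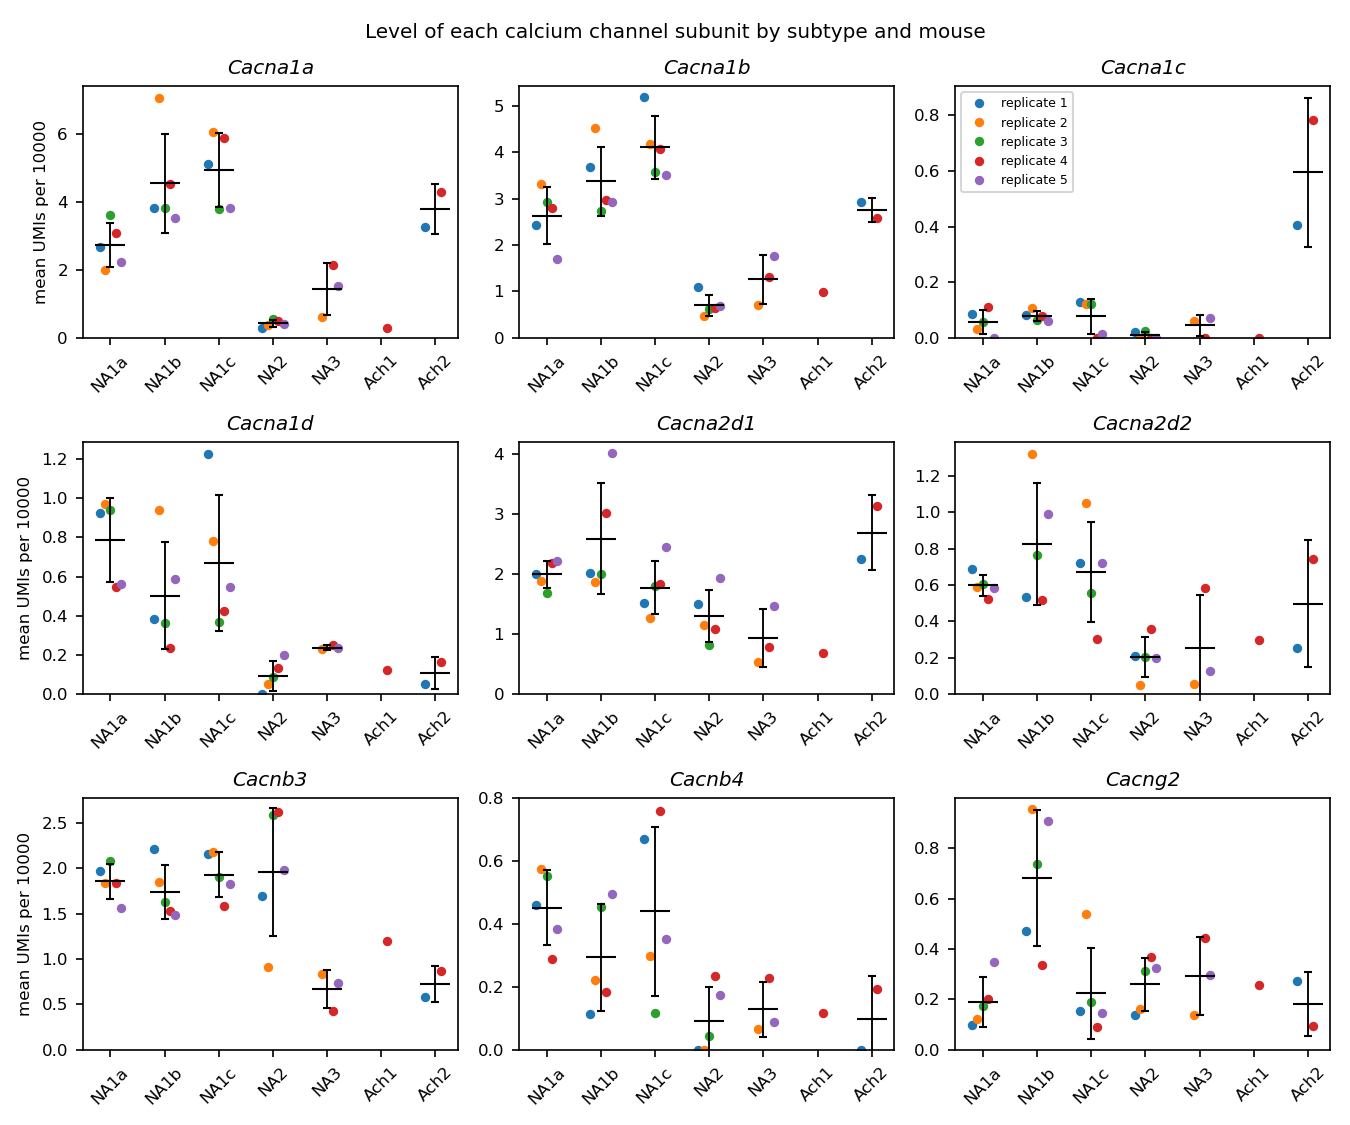
Mean UMIs per 10000 of each gene (vertical axis) in 7 subtypes (horizontal axis). Coloured points are mice with at least 10 neurons, and black marks with lines are the mean and SD over mice, drawn down to 0. Cacna1a and Cacna1b are high in NA1a, NA1b, NA1c and Ach2, and Cacnb3 is lower in NA3 and Ach2.

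Promoter sequence is shown for a member that was lower in NA2, Cacna1b, and for a member that did not pass the test there, Cacna2d1. Each line gives the 250 bases before the RefSeq start in GRCm38.p6, 5′ to 3′ on the strand of the gene, and capitals mark the GC box, which reads GGGCGG on the forward strand and as its reverse complement on the other.
Cacna1b, chr2:24763153-24763402, minus strand: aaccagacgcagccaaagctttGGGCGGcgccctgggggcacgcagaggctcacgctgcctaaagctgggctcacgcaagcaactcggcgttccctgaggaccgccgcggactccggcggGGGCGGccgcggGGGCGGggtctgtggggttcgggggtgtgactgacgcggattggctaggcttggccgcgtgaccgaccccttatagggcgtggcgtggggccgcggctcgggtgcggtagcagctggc
Cacna2d1, chr5:15934441-15934690, plus strand: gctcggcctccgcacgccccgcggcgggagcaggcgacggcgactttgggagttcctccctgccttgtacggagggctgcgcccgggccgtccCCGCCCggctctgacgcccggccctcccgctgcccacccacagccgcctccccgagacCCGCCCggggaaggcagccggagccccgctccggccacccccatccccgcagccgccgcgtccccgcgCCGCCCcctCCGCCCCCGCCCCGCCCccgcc
The Cacna1b window held 3 GC boxes on the forward strand and none on the reverse, and the Cacna2d1 window held 6 on the reverse and none on the forward, some of them overlapping. A GC box on either strand was present in 32.7% of the 32851 RefSeq promoter windows of the same length. GC content was 72.0% and 82.4%, against a median of 52.4% over all windows. Of the 9 genes, 8 had an entry in this promoter table.

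The first test asked whether a gene differed among NA1a, NA1b, NA1c, NA2 and NA3. It was a limma fit on log2 levels with a pseudocount of 0.1 and the mouse as a block. Of the 9 genes, 8 passed the filter and all 8 were called at an adjusted p below 0.05, while 61.4% of the 7218 genes tested were called. The smallest adjusted p was that of Cacna1a (limma, Benjamini-Hochberg adjusted p = 7.69e-15) and the largest that of Cacng2 (limma adjusted p = 0.0104). The call of Cacng2 was lost without replicate 3 or without replicate 5, and that of Cacnb3 without replicate 4 (limma adjusted p from 0.0514 to 0.0591). With each neuron thinned to 2000 UMIs, 6 of the 8 were called, and Cacnb4 (limma adjusted p = 0.373) and Cacng2 (limma adjusted p = 0.201) were not.

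**Figure D3:**
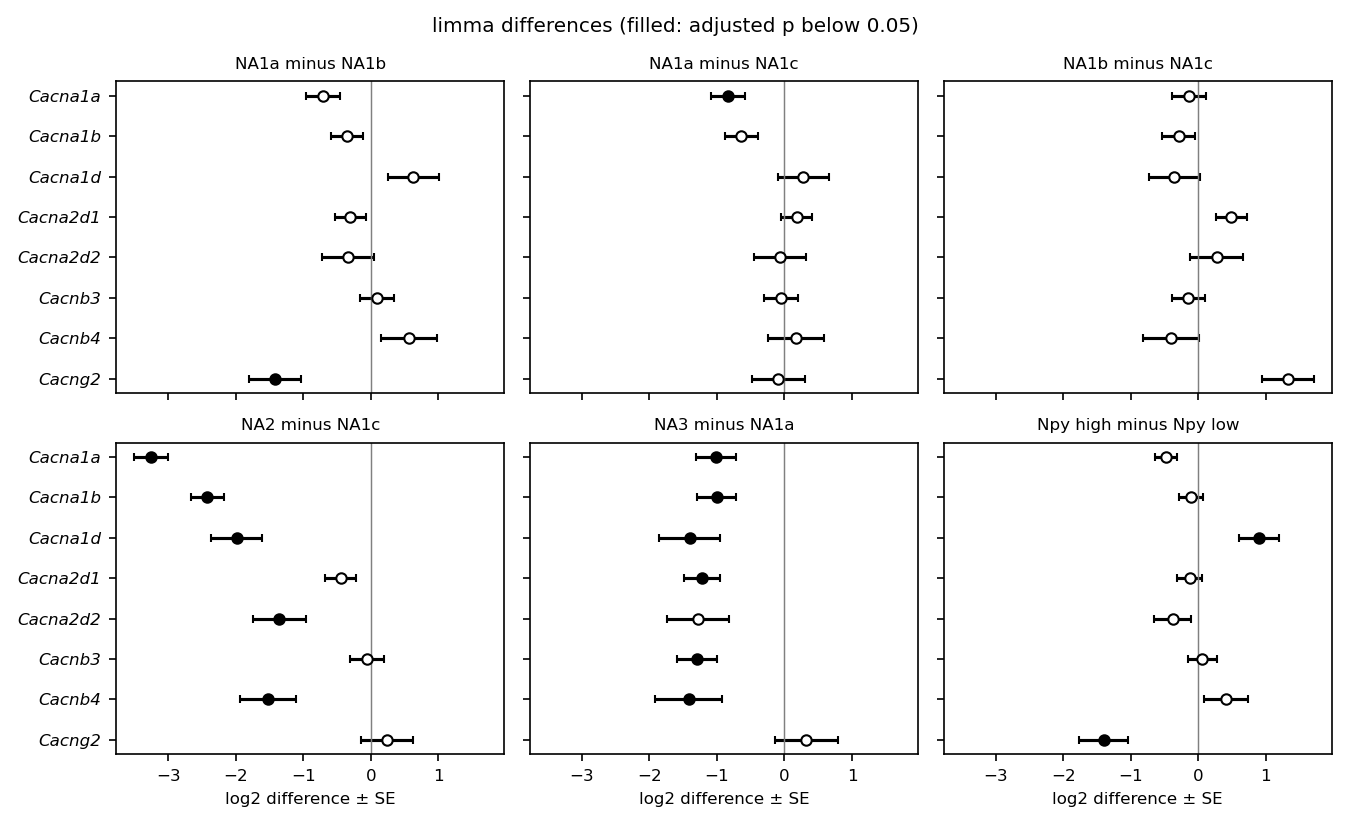
Difference on the log2 scale, with its standard error from limma, for the 8 tested genes in 6 comparisons. Filled circles have an adjusted p below 0.05. Filled circles number 5 in NA2 minus NA1c, where Cacna1a is lowest at -3.26, and 6 in NA3 minus NA1a.

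The comparison of NA2 with NA1c covers the largest differences, and 5 of the 8 genes tested were lower in NA2. Over all genes 55.6% were called and 34.7% were lower, and the median log2 difference was -1.44 over the 8 genes and -0.30 over all genes. Cacna1a fell by 3.26 on the log2 scale (SE 0.25, limma adjusted p = 1.87e-14), lower in 5 of 5 mice. Cacna1b fell by 2.42 (SE 0.24, limma adjusted p = 2.72e-11), Cacna1d by 1.99 (limma adjusted p = 2.22e-05), Cacnb4 by 1.53 (limma adjusted p = 0.00199) and Cacna2d2 by 1.35 (limma adjusted p = 0.00299). The log2 differences of the other 3 were -0.45 for Cacna2d1 (limma adjusted p = 0.0934), 0.24 for Cacng2 (limma adjusted p = 0.621) and -0.05 for Cacnb3 (limma adjusted p = 0.868).

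Without the neurons that shared a barcode, these 5 genes were again called, with log2 differences of -3.0 for Cacna1a, -2.51 for Cacna1b, -1.64 for Cacna1d, -1.32 for Cacnb4 and -1.31 for Cacna2d2, and NA2 then had 4 mice. The other 3 were again not called, at -0.11 for Cacna2d1, 0.33 for Cacng2 and 0.12 for Cacnb3. With each profile centred on its median gene, the differences were -2.93 for Cacna1a and -2.09 for Cacna1b, and the value of Cacnb3 turned to 0.28 (limma adjusted p = 0.351). After thinning each neuron to 2000 UMIs, Cacnb4 no longer passed (limma adjusted p = 0.533).

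Gene length moved with this comparison. The median log2 difference was 0.41 over 2812 genes under 20 kb, -0.38 from 20 to 50 kb, -0.85 from 50 to 100 kb, -1.07 from 100 to 200 kb and -1.25 over 450 genes longer than 200 kb. The 5 genes that were lower are between 130 and 452 kb long, and Cacnb3 is 13.7 kb long. Of the genes over 200 kb, 63.8% were lower. Each of the 5, which had been picked for being called lower, lay below the median of its length class. Cacnb3 also lay below its own, at -0.05 against 0.41. Cacna2d1 at 440 kb and Cacng2 at 128 kb lay above the median of theirs. The median mitochondrial share was 6.21% in NA2 and 3.38% in NA1c. The part of gene length and of mitochondrial share in the result was not tested.

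**Figure D4:**
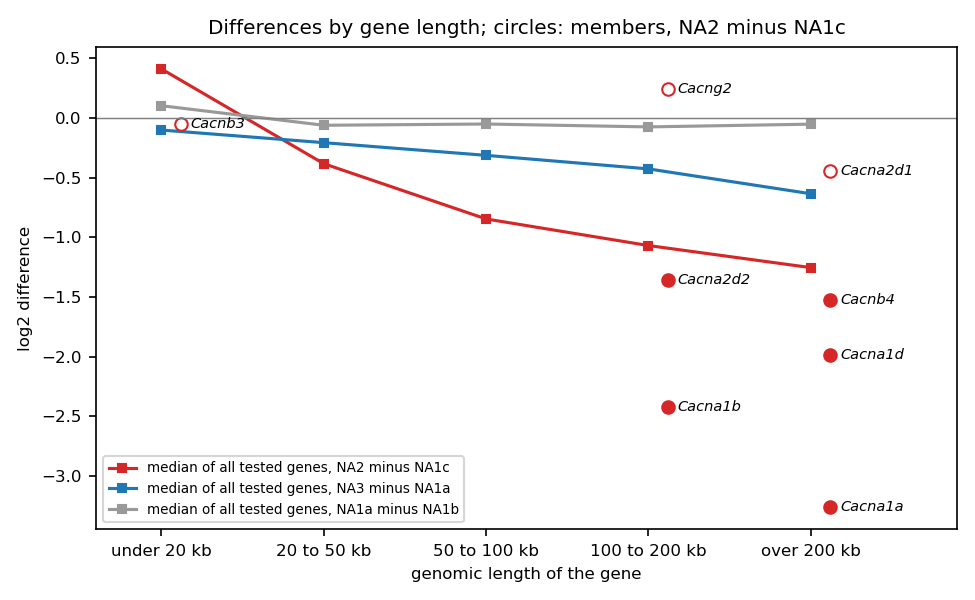
Median log2 difference of all tested genes by genomic length in 3 comparisons (squares and lines), with the 8 genes of interest in NA2 minus NA1c as circles, filled where the adjusted p is below 0.05. In NA2 minus NA1c the medians run from 0.41 to -1.25, and Cacna1a stands at -3.26.

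NA3 was compared with NA1a, whose depth was nearest (medians of 6643.5 and 8181.5 UMIs per neuron). Of the 8 genes, 6 were lower in NA3, beside 9.61% of all genes, with 5.49% higher, and the medians were -1.25 and -0.23. Longer genes had a higher background here too. Genes under 20 kb were lower in 7.86% (median -0.10), those from 100 to 200 kb in 15.5% (median -0.43) and those over 200 kb in 25.3% (median -0.64). All tested members but Cacnb3 are longer than 100 kb. The log2 differences were -1.22 for Cacna2d1 (SE 0.27, limma adjusted p = 0.00114), -1.30 for Cacnb3 (SE 0.30, limma adjusted p = 0.00147), -1.01 for Cacna1b (limma adjusted p = 0.0122), -1.02 for Cacna1a (limma adjusted p = 0.0147), -1.40 for Cacna1d (limma adjusted p = 0.0272) and -1.42 for Cacnb4 (limma adjusted p = 0.0450). Cacna1b was lower in 2 of 3 mice and the other 5 in 3 of 3. Cacna2d2 did not pass, at -1.28 (limma adjusted p = 0.0521), nor did Cacng2, at 0.32 (limma adjusted p = 0.703).

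Cacna2d1 was called with each replicate left out in turn. The call of Cacnb3 was lost without replicate 4, that of Cacna1a without replicate 2, that of Cacna1b without replicate 2 or 4, that of Cacna1d without replicate 2, 3 or 5, and that of Cacnb4 without replicate 1, 2, 3 or 5 (limma adjusted p from 0.0564 to 0.285). Without replicate 2 the number called went from 6 to 2. After thinning, Cacna1b (limma adjusted p = 0.25) and Cacnb4 (limma adjusted p = 0.477) were not called, and the differences of Cacna1a and Cacna1d moved to -2.52 and -3.37. Centring on the median gene also ended the call of Cacnb4 (limma adjusted p = 0.0689). In the same 3 mice the summed neuron markers were 1.09 lower on the log2 scale in NA3 than in NA1a, and the summed satellite glia markers were 4.97 higher. Median mitochondrial share was 6.70% in NA3 and 1.67% in NA1a. The part of these markers, of mitochondrial share and of gene length in the lower levels was not tested.

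Within the NA1 subtypes the differences were smaller. Between NA1a and NA1b, 1 of the 8 genes was called, beside 3.35% of all genes (2.22% higher and 1.14% lower). It was Cacng2, lower in NA1a by 1.42 on the log2 scale (SE 0.39, limma adjusted p = 0.0271). The call was lost when replicate 1, 2, 3 or 5 was left out (limma adjusted p from 0.0825 to 0.141) and after thinning. Cacna1a was at -0.70 (SE 0.25, limma adjusted p = 0.124). Between NA1a and NA1c, 1 of 8 was called, beside 4.66% of all genes and 1.4% in the same direction, and it was Cacna1a at -0.84 (SE 0.25, limma adjusted p = 0.0425). This call was lost without replicate 1, 2, 4 or 5 (limma adjusted p from 0.107 to 0.161) and without the neurons that shared a barcode (limma adjusted p = 0.0555). Cacna1b was at -0.64 (limma adjusted p = 0.131).

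Between NA1b and NA1c, limma called 0 of the 8 genes, and 1.33% of all genes, 0.402% higher and 0.928% lower. At an unadjusted p below 0.05 there were 2, Cacng2 at 1.33 (SE 0.39, limma adjusted p = 0.0845) and Cacna2d1 at 0.49 (SE 0.23, limma adjusted p = 0.503). The exact sign-flip test over mice was run on 27 pairs of gene and comparison. It cannot go below 0.063 with 5 mice, so no pair could pass 0.05. The 6 pairs at that limit, each with all 5 mice on one side, had an adjusted p of 0.281. They were Cacna1a and Cacng2 between NA1a and NA1b, Cacna1a and Cacna1b between NA1a and NA1c, and Cacna2d1 and Cacng2 between NA1b and NA1c. After thinning, Cacna1b between NA1a and NA1c was the only one of the 6 still at that limit. Cacna1a moved to -0.32 between NA1a and NA1b (exact p = 0.438) and to -0.56 between NA1a and NA1c (exact p = 0.188), Cacng2 to -1.52 between NA1a and NA1b (exact p = 0.125) and to 0.61 between NA1b and NA1c (exact p = 0.5), and Cacna2d1 to 0.17 (exact p = 0.438).

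Neuropeptide Y (Npy) is a co-transmitter of sympathetic neurons, and the study ordered neurons of NA1a, NA1b and NA3 by it. The low stratum here held the 154 neurons at or below 5.56 Npy UMIs per 10000, and the high stratum the 154 neurons at or above 52.8. NA1a made up 90.3% of the high stratum and 3.25% of the low one, so stratum and subtype largely cannot be told apart. Of the 8 genes, 2 were called between the strata, beside 7.74% of all 7323 genes tested, 3.8% higher and 3.95% lower.

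Cacng2 in the low stratum was 0.924, 0.708, 0.388, 0.463 and 0.640 UMIs per 10000 in replicates 1 to 5, and in the high stratum 0.145, 0.25, 0.197, 0.0283 and 0.300. The high stratum was lower in 5 of 5 mice and no value overlapped (log2 difference -1.40, SE 0.36, limma adjusted p = 0.00778). Cacna1d went the other way, with 0.209, 0.718, 0.398, 0.262 and 0.355 in the low stratum and 1.02, 1.09, 0.844, 0.664 and 0.385 in the high one. It was higher in 5 of 5 mice, and the strata overlapped (log2 difference 0.90, SE 0.29, limma adjusted p = 0.0465). Cacna1a was lower in the high stratum in 4 of 5 mice, at -0.48 (limma adjusted p = 0.0748).

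The call of Cacna1d was lost when replicate 1, 2, 3 or 4 was left out, and that of Cacng2 without replicate 4 (limma adjusted p = 0.0558). With strata drawn inside NA1a alone, limma called 0 of 7 genes tested. At an unadjusted p below 0.05 there was 1, Cacnb3 at -0.89 (limma adjusted p = 0.213), and Cacna1d stood at -0.21 (limma adjusted p = 0.893).

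**Figure D5:**
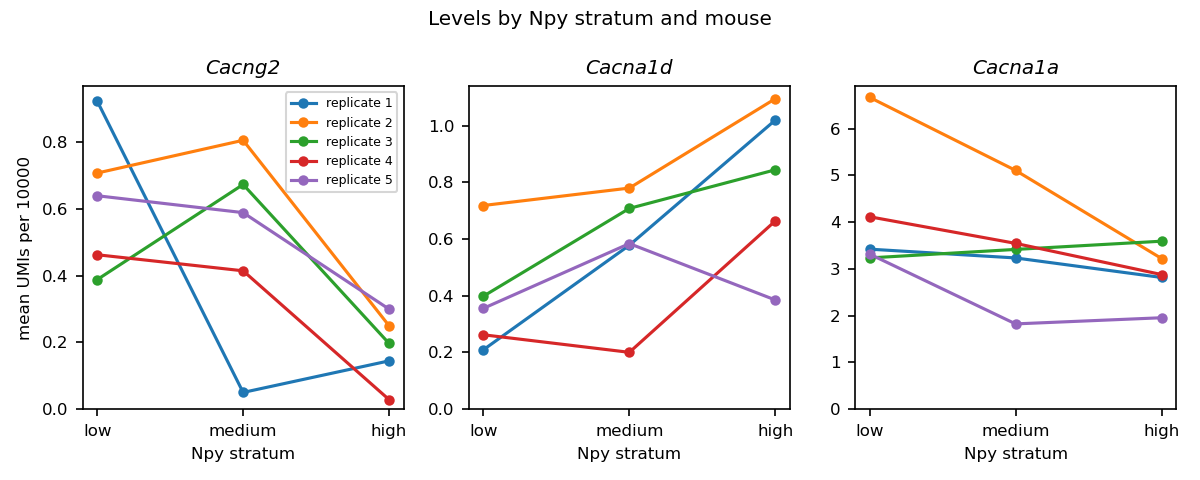
Mean UMIs per 10000 of 3 genes in the low, medium and high Npy strata, with 1 line for each of 5 mice. Cacng2 is lower in the high stratum in all 5 mice and Cacna1d is higher in all 5.

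Across the 23 mouse by subtype profiles, each gene centred within its mouse, the highest likeness between members was that of Cacna1a and Cacna1b (Pearson r = 0.96), followed by Cacna1d and Cacnb4 (r = 0.89). These r values are descriptions, since profiles share libraries and depth. The genes with the pattern most like Cacna1a were Srrm2 (r = 0.98), Crocc (r = 0.97) and Meg3 (r = 0.97), and those most like Cacna1b were Abca7 (r = 0.96), Igsf9b (r = 0.96) and Akap9 (r = 0.96). Cacng2 had the least close neighbour, Slc18a1 (r = 0.78), a vesicular monoamine transporter.

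Of the 17 other subunit genes listed, 15 had a column and 4 could be tested, Cacna2d3, Cacnb1, Cacng3 and Cacng4. All 4 were lower in NA2 than in NA1c, beside 34.7% of all genes. Without shared barcodes 4 of 5 tested were lower, beside 30.8% of all genes. Cacna2d3, the alpha2delta-3 gene, was 0.462 ± 0.271 in NA2 and 1.82 ± 0.214 in NA1c (SD, n = 5 each), a log2 difference of -2.06 (limma adjusted p = 2.37e-06), and -2.37 without shared barcodes. No UMI was found in the 1002 neurons for Cacna1f, Cacna1g, Cacna1s, Cacna2d4 and Cacng1. Cacna1e, the R-type alpha1 gene, was 0.431 ± 0.102 in NA1c, 0.313 ± 0.0921 in NA1a and 0.0690 ± 0.0545 in NA1b (SD, n = 5 each), and it was not tested because its mean was under 0.2.

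Among 12 tested regulators and release site partners, 9 were lower in NA2 than in NA1c and none higher, with a median of -1.58, beside 34.7% lower, 20.9% higher and a median of -0.30 over all genes. Unc13a, a vesicle priming factor, was at -2.66 (SE 0.29, limma adjusted p = 2.54e-10) and Rimbp2, which links release sites to calcium channels, was at -2.94 (limma adjusted p = 8.47e-10). Of 8 genes of calcium stores, entry and clearance, 6 were lower, led by Ryr2, the ryanodine receptor gene, at -4.37 (SE 0.29, limma adjusted p = 1.50e-16). Calcium sensors moved both ways, with 5 higher and 5 lower of 14, beside 20.9% of all genes higher and 34.7% lower. Camk2d, a calcium-dependent protein kinase gene, was among the lower ones, at 1.04 ± 0.195 in NA2 and 3.34 ± 0.695 in NA1c (SD, n = 5 each; log2 difference -1.58, limma adjusted p = 7.78e-08). Without shared barcodes, 8 of 12 release site genes, 5 of 9 store genes and 4 of 14 sensors were lower and 4 sensors were higher. Of all 7244 genes tested in that setting, 30.8% were lower and 1254 were higher. The share of sensors that were lower, 28.6%, was below that of all genes. The differences were -2.38 for Unc13a, -2.21 for Rimbp2, -4.26 for Ryr2 and -1.39 for Camk2d. In NA3 against NA1a, 5 of 12 regulators and release site partners, 3 of 8 store and clearance genes and 1 of 14 sensors were lower, and none was higher, beside 9.61% of all genes lower and 5.49% higher. The share of sensors that were lower was below that of all genes. Among genes over 200 kb, 63.8% were lower in NA2 than in NA1c and 25.3% in NA3 than in NA1a. The part of gene length in these lists and in the other subunits was not tested.

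In the smaller comparisons, Ncald, a neuronal calcium sensor gene, was higher in NA1a than in NA1b (log2 difference 1.11, SE 0.19, limma adjusted p = 0.000151). NA1b was the low one, since Ncald was also lower in NA1b than in NA1c (-0.95, SE 0.19, limma adjusted p = 0.0018). Its levels were 5.35 ± 0.564 in NA1a, 2.45 ± 0.502 in NA1b and 4.82 ± 1.07 in NA1c (SD, n = 5 each). Ncald was also higher in the high than in the low Npy stratum (1.17, SE 0.17, limma adjusted p = 1.95e-06). NA1b gave 118 of the 154 neurons of the low stratum and NA1a 139 of the 154 of the high one, so stratum and subtype largely cannot be told apart. Itpr1, an inositol trisphosphate receptor gene, was lower in NA1a than in NA1b, at 0.119 ± 0.0447 against 0.533 ± 0.172 UMIs per 10000 (SD, n = 5 each; log2 difference -1.52, limma adjusted p = 0.00977). In NA1c Itpr1 was 0.216 ± 0.102, and it was not called against NA1a (limma adjusted p = 0.526) or NA1b (limma adjusted p = 0.245). Gem, a small GTPase that limits calcium channel activity, was higher in the high Npy stratum by 1.54 (SE 0.37, limma adjusted p = 0.00396). It was 1 of 2 called, both higher, among 13 tested regulators and release site partners, beside 7.74% of all genes called and 3.8% higher.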

How the data were processed

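Single cells of stellate ganglia were sequenced by the 10x Genomics droplet method, with 8 samples of 1 condition. The submitters' processing notes name Cell Ranger 2.1.1, Seurat and Scanpy and the build mm10. The authors filtered cells on genes, UMIs and mitochondrial RNA, clustered the neurons and named subtypes. For each of 1303 neurons the authors scaled UMIs to 10000, added 1 and deposited the natural log. These values are not counts. UMIs were recovered by undoing the log and dividing each neuron's values by the smallest above 0, and 100.0% came out whole within 0.01. No doublets were removed here, and no doublet step is given in the sources used here.

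Mouse names of 301 neurons (3 names) matched no single sample and were not used. Levels were averaged per mouse and subtype where at least 10 neurons were present, and log2(level + 0.1) was modelled in limma 3.58.1 (R 4.3.3) over genes with a mean of at least 0.2, with Benjamini-Hochberg adjustment over all genes tested. Fold changes on this scale understate the change of low genes. Npy strata were the lowest and highest 30% of neurons. The mouse was a block because profiles of 1 mouse come from the same library, which the labels name as 1 mouse although the protocol combines ganglia. Residuals of same-mouse profiles had a mean correlation of 0.0640 over 42 pairs. The script was tested on simulated data. Exact sign-flip tests used SciPy 1.17.1 and NumPy 2.4.6. Named genes were all members, up to 3 per list and comparison by smallest p, and the 3 nearest patterns; 1 listed gene is not reported here. The members and lists were chosen with earlier results of these data known. Gene spans are from the GENCODE annotation of GRCm38 and were found for 99.2% of tested genes.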

Additional observations from a re-analysis of the deposited data

Results flagged for a closer look

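Each gene was checked for a mouse that stood far from the other mice of its subtype or Npy stratum, in groups of 4 or 5 mice, by Dixon's gap test at its 95% limit. Of 63 groups, 3 had such a mouse, and chance gives about 1 in 20. In all 3 it was replicate 2 and its value was the highest. Cacna1a in NA1b was 7.06 UMIs per 10000, where the other 4 mice had 3.51 to 4.52. Cacng2 in NA1c was 0.538, where the others had 0.0894 to 0.191. Cacna1a in the low Npy stratum was 6.67, where the others had 3.23 to 4.11. The first and the last share neurons, since most neurons of the low stratum are NA1b.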

How the results depend on the processing

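Numbers below are of the 8 calcium channel genes called by limma, unless stated. Between NA1a and NA1b (1 gene) there were 0 with a filter at 0.5, without a filter, with at least 5 neurons and after thinning to 2000 UMIs, 2 with a pseudocount of 1, with mean natural log values and when only the groups compared were fitted, and 0 to 1 with 1 replicate left out. Between NA1a and NA1c (1 gene) there were 0 without a filter, with at least 5 neurons, after thinning, with summed UMIs and with mean natural log values, 2 with a pseudocount of 1 and with only the groups compared, and 0 to 1 with 1 replicate left out. Centring on the median gene and leaving out shared barcodes, both chosen after seeing the data, gave 0. Between NA1b and NA1c (0 genes) there was 1 with a pseudocount of 1, with mean natural log values and with only the groups compared, and 0 to 1 with 1 replicate left out. NA2 against NA1c (5 genes) gave 3 with a filter at 0.5 and 5 with any replicate left out. NA3 against NA1a (6 genes) gave 3 with only the groups compared and 2 to 5 with 1 replicate left out. The Npy comparison (2 genes) gave 1 with a filter at 0.5 and without one, 0 after thinning, and 0 to 2 with 1 replicate left out. Within NA1a it gave 0, where Cacna1d turned to -0.21 and Cacng2 was not tested. The test over 5 subtypes (8 genes) gave 5 with a filter at 0.5, which leaves fewer genes to test, 6 after thinning and 7 to 8 with 1 replicate left out. Other causes were not tested. The difference in Cacna1b share turned to -8.27 percentage points after thinning and ran from -1.66 to 1.14 with 1 replicate left out, with the negative values without replicates 2 and 5.

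With no replicate block, that is without pairing profiles by mouse, 0 genes were called between NA1a and NA1c and 1 in the Npy comparison, and over all genes the Npy count went from 567 to 313. The number of members called was the same as with the block in the other 5 comparisons, although in NA3 against NA1a Cacnb4 was lost and Cacna2d2 gained.

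Over all genes, thinning changed the number called from 4434 to 2955 over 5 subtypes, from 242 to 69 between NA1a and NA1b, from 336 to 86 between NA1a and NA1c, from 96 to 50 between NA1b and NA1c, from 4016 to 2554 between NA2 and NA1c and from 567 to 181 for Npy. With only the groups compared it was 760, 702 and 224 in the first 3 pairs. Mean natural log values gave 544 and 951 between NA1a and NA1b or NA1c and 1647 between NA3 and NA1a. A filter at 0.5 gave 2902 over 5 subtypes and 2582 between NA2 and NA1c. Between NA3 and NA1a there were 1752 genes without a filter, 1664 with at least 5 neurons and 649 without replicate 4. With 1 replicate left out, counts fell to 102 and 148 between NA1a and NA1b (without 1 and 5), to 109, 171 and 216 between NA1a and NA1c (without 1, 4 and 3), to 59 and 63 between NA1b and NA1c (without 4 and 5) and to 351 for Npy (without 1). A pseudocount of 1 gave 415 between NA1a and NA1b and 152 between NA1b and NA1c, as did summed UMIs in the latter, and Npy strata within NA1a gave 21. Low UMI counts limit Cacna1c, Cacnb4 and Cacng2 most, with 59, 185 and 177 UMIs in all.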
